A study of Mus musculus with 2 samples.

Results

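The Mir297, Mir466, Mir467 and Mir669 families of mouse microRNA genes were examined in small RNA from whole embryonic lung. A gene belonged to the set when its symbol in the mouse annotation began with 1 of these 4 names and no further digit followed directly. By this rule 69 of the 1973 microRNA genes in the deposited tables were members. Of these, 59 lay in an intron of Sfmbt2 and 10 lay elsewhere in the genome. The samples were lungs of B6NCrl mouse embryos of both sexes at embryonic day 15.5, untreated and described as healthy, and they formed a single group. Replicate 1 pooled the lungs of 78 embryos and replicate 2 those of 62 embryos, and both carried the same donor identifier. The labels name no further difference between the pools, so the spread between the replicates may be partly technical. With 1 group there was no contrast between conditions, and levels within the lung are described without a test.

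A microRNA is cut from a hairpin precursor, and its seed, bases 2 to 8 of the mature strand, directs it to target transcripts. Sfmbt2 encodes a Polycomb group protein. It is imprinted in the extraembryonic tissues of the mouse, where the paternal copy is expressed, and one of its introns carries a large cluster of microRNA precursors that expanded in rodents by repeated duplication. The cluster is known above all for its role in the placenta. Its precursors are rich in alternating UG and CA letters, and many are near-identical copies of each other.

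RefSeq mature sequences (GRCm38.p6, matched by symbol) were found for 8 of the 69 members, all of them among the 10 that lie outside Sfmbt2. They are shown because repetitive letters can be read in them directly, with the seed in capitals and each written 5′ to 3′.
mmu-miR-466i-3p: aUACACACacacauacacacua
mmu-miR-466q: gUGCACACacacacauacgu
mmu-miR-467f: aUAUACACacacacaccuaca
mmu-miR-467g: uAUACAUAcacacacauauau
mmu-miR-466j: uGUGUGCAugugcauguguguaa
mmu-miR-466k: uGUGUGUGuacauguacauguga
mmu-miR-467h: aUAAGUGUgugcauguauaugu
mmu-miR-669n: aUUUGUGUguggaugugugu
The first 4 hold runs of alternating C and A and the other 4 runs of alternating U and G. The longest strictly alternating run was 12 nt in mmu-miR-466q and in mmu-miR-467f and 11 nt in mmu-miR-466i-3p. No 2 of the 8 shared a seed, and none of the 8 mature sequences occurred whole in the precursor of another member.

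The letters of some of these seeds recurred in many intron members and those of others in few. AUACAUA, the seed of mmu-miR-467g, was present somewhere in the precursor of 84.7% of the intron members (50 of 59), against 6.65% of the 1894 precursors compared. UACACAC, the seed of mmu-miR-466i-3p, was present in 62.7% of intron members against 7.81% of all precursors, GUGUGUG, of mmu-miR-466k, in 52.5% against 9.35%, and GUGUGCA, of mmu-miR-466j, in 50.8% against 4.80%. The other 4 were less frequent. UGCACAC, of mmu-miR-466q, was in 20.3% of intron members against 2.75% of all precursors, UAUACAC, of mmu-miR-467f, in 16.9% against 5.28%, and UUUGUGU, of mmu-miR-669n, in 15.3% against 2.80%. UAAGUGU, of mmu-miR-467h, was in 1 intron member (1.69% against 0.686%). Matches were searched on the annotated strand and may overlap each other. They are a description of letters and do not place a mature seed at that position.

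Libraries held 5354530 counts in replicate 1 and 6489390 in replicate 2 on the annotated strand of a gene, so 1 count equalled 0.187 or 0.154 counts per 1000000 gene counts (CPM). A gene at 0 counts may have reached 0.560 or 0.462 CPM, the value of 3 counts, by counting error alone, which is the only error that such limits and the intervals below cover. Reads that mapped to several places were 31.4% and 30.6% of the 2 libraries and stand on a line of their own in the tables. Such reads were assumed to be absent from the gene counts, so the limit does not hold for a precursor with copies. Lung markers were present, with Mir126a of endothelium at 68906 and 67001 CPM, all 5 miR-200 family genes of epithelium and all 3 mesenchymal markers detected. Markers of other tissues summed to 684 and 833 CPM for erythroid cells and 842 and 1034 for heart (replicates 1 and 2). The sums were 470 and 278 CPM for liver and 166 and 108 for neural tissue, the last from Mir137 alone. The Mir124a copies were at 0, which was not read as absence, since reads shared by copies may be missing from the counts. Whether those tissues contributed to the counts of the 4 families was not tested. In a whole organ, fewer cells of a type and less RNA per cell cannot be told apart.

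A gene was called detected at 10 or more counts in each of the libraries. By this measure 10 of the 69 members (14.5%) were detected, beside 18.1% of all tabulated genes, and all 10 lay in the Sfmbt2 intron. Among other genes whose precursor shares 20 nt with another precursor, which 67 of the members also do, 7.71% were detected. The 10 genes were 3 of the Mir467 family, 5 of Mir669, 1 of Mir466 and 1 of Mir297. They held 99.9% of the members' counts in each replicate. The detected members had a median of 188 CPM beside 123 CPM over all detected genes of the table, and their levels spanned 338-fold. Counts of short inserts were not divided by precursor length, since each read stands for a mature product and not for a piece of a long transcript.

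The Mir467 family was counted most. Mir467e (ENSMUSG00000076948.2) had 5636 and 7194 counts, or 1053 and 1109 CPM in replicates 1 and 2. Mir467d (ENSMUSG00000077021.2) had 5661 and 6912 counts, or 1057 and 1065 CPM, and Mir467c (ENSMUSG00000077049.2) had 5282 and 6503 counts, or 986 and 1002 CPM. The values of Mir467e and Mir467d overlapped, whereas both values of Mir467c lay below them, by 1.07-fold from the mean of Mir467d. The 3 genes ranked 92, 94 and 96 among the 1973 genes by mean CPM and together made up 80.3% and 80.2% of all counts of the 4 families. Their precursors resembled each other, at 92.0% identity between Mir467e and Mir467d, 83.7% between Mir467e and Mir467c and 83.5% between Mir467d and Mir467c. The precursor of Mir467e has 15 stretches of 20 nt in common with Mir467d and 29 with Mir467c. A read from such a stretch cannot be given to 1 gene alone. The share of the Mir467 family was 0.314% ± 0.00561 of all counts (SD, n = 2).

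The other 14 tabulated genes of the Mir467 family were not detected. The detected share of the family was 17.6%, beside 18.1% of all tabulated genes. Mir467b had 6 and 4 counts and Mir467a-1 had 0 and 2, while 12 members of the family had 0 counts in both libraries. The closest relative of Mir467b was Mir467a-1, at 97.3% identity. All 10 Mir467a precursors in the table had no 20-nt stretch of their own.

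Mir669 genes formed the second most counted family, at 0.0741% ± 0.00111 of counts (SD, n = 2). Of the 21 members of this family, 5 were detected (23.8%), beside 18.1% of all tabulated genes. Mir669o (ENSMUSG00000077086.1) stood at 337 and 356 CPM from 1802 and 2309 counts. Mir669l (ENSMUSG00000076959.1) followed at 275 and 261 CPM from 1470 and 1691 counts, and Mir669c (ENSMUSG00000076118.1) at 106 and 111 CPM from 565 and 720 counts. The ranges of these 3 genes did not overlap each other, and Mir669o exceeded Mir669l by 1.29-fold. The lower pair of the family were Mir669e (ENSMUSG00000080653.1), with 62 and 99 counts or 11.6 and 15.3 CPM, and Mir669h (ENSMUSG00000080594.1), with 20 and 32 counts or 3.74 and 4.93 CPM. Mir669e lay 8.07-fold under Mir669c, and the ranges of Mir669e and Mir669h did not overlap. The closest relative of Mir669o was Mir669a-1, at 92.8% identity, which had 0 counts in both libraries.

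The Mir466 family has the most members in the tables, 25. Its share was 0.00246% ± 0.000515 of counts (SD, n = 2), and only Mir466n was detected (4% of the family, beside 18.1% of all tabulated genes). Mir466n (ENSMUSG00000077991.1) had 99 and 165 counts, or 18.5 and 25.4 CPM, between the levels of Mir669c and Mir669e. Below it, Mir466b-3 had 4 and 4 counts and Mir466h had 6 and 1. In the Mir297 family, with 6 members and 0.000356% ± 0.000107 of counts (SD, n = 2), Mir297a-2 (ENSMUSG00000076983.2) was detected at 12 and 27 counts, or 2.24 and 4.16 CPM. It was the 1 detected gene of its family (16.7%), and its range overlapped that of Mir669h. Mir297c had 2 and 0 counts and Mir297b had 1 and 1.

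**Figure D1:**
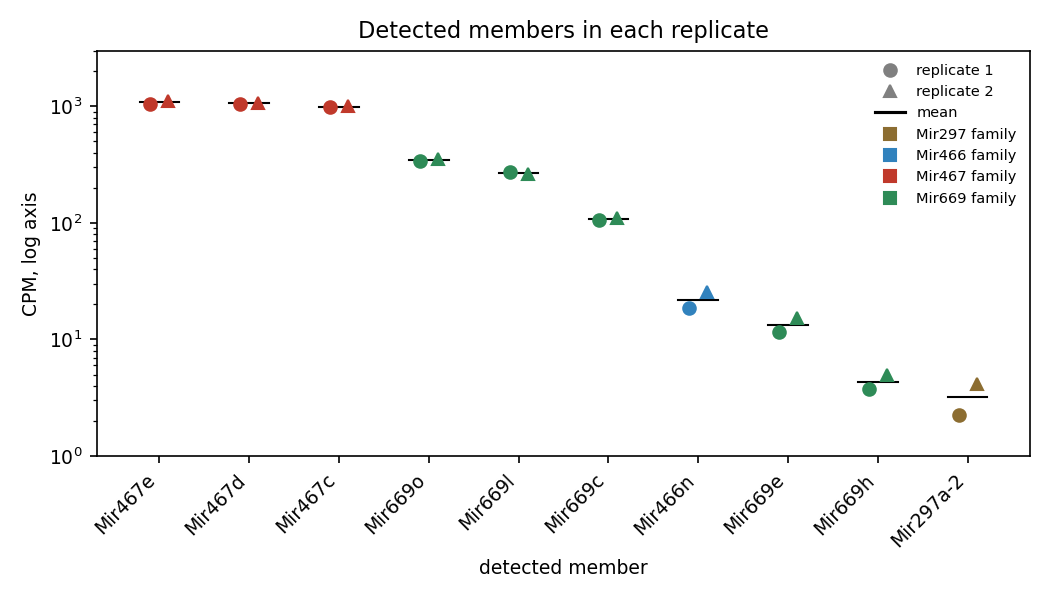
CPM on a log axis for the 10 detected members, ordered by mean, with replicate 1 as circles, replicate 2 as triangles, the mean as a bar and the family as colour. The Mir467 genes sit together between 986 and 1109 CPM, and values fall from 356 CPM for Mir669o to 2.24 CPM for Mir297a-2.

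At the minimum for detection, Mir297a-2 was just inside with 12 and 27 counts and Mir669f just outside with 8 and 9. Among the 59 members below it, 44 had 0 counts in both libraries and the other 15 summed to 30 and 35 counts, with at most 8 in replicate 1 and 9 in replicate 2. Over the whole table, 1261 of 1973 genes had 0 counts in both libraries. None of the 10 detected members had a read on the opposite strand, beside 37 of the 357 detected genes of the table. With 10 members, 0 is near that share. Among all 69 members there was 1 opposite-strand read, at Mir669m-2.

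All 59 intron members lie on the plus strand of chromosome 2, on the strand of Sfmbt2, between 10466663 and 10518279 (mm10, positions from GENCODE M21). That span of 51617 bp falls inside a single intron of 62472 bp (10461473 to 10523944), which is intron 10 in one annotated Sfmbt2 transcript of 23 exons and intron 11 in another. The detected members stood toward both ends of the row. From the 5′ side came Mir669e (10467495 to 10467613), Mir669l (10468971 to 10469068), Mir297a-2 (10472254 to 10472343) and Mir467c (10473931 to 10474027). After a long gap came Mir467e (10505721 to 10505807), Mir467d (10507630 to 10507714), Mir669c (10509296 to 10509404), Mir466n (10513741 to 10513834), Mir669o (10514300 to 10514395) and Mir669h (10518155 to 10518279).

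Between Mir467c and Mir467e lay 26 tabulated members in a row, from Mir669a-3 to Mir466b-3 over 29.2 kb, of which none was detected. Together these 26 had 10 and 11 counts, and 22 of them had 0 in both libraries. Along most of this stretch a Mir467a precursor is followed by a Mir466 and then a Mir669 precursor. That order includes annotated genes that were not tabulated, such as Mir669a-4 to Mir669a-12. The starts of neighbouring Mir467a or Mir467b genes lay a median of 2454.5 bp apart, and 9 of the 10 distances were within 100 bp of that. Of the 26 precursors, 19 contained no 20-nt stretch of their own, meaning that every 20-nt stretch also occurred in another precursor of the table on either strand. Just 1 other member was of that kind, Mir669a-2. Outside the 4 families, 1 of the 236 genes of that kind was detected. A further 12 genes of the 4 families are in the annotation used here but not in the deposited tables, among them Mir466b-1, Mir466e and Mir669a-4 to Mir669a-12, all within the same intron.

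**Figure D2:**
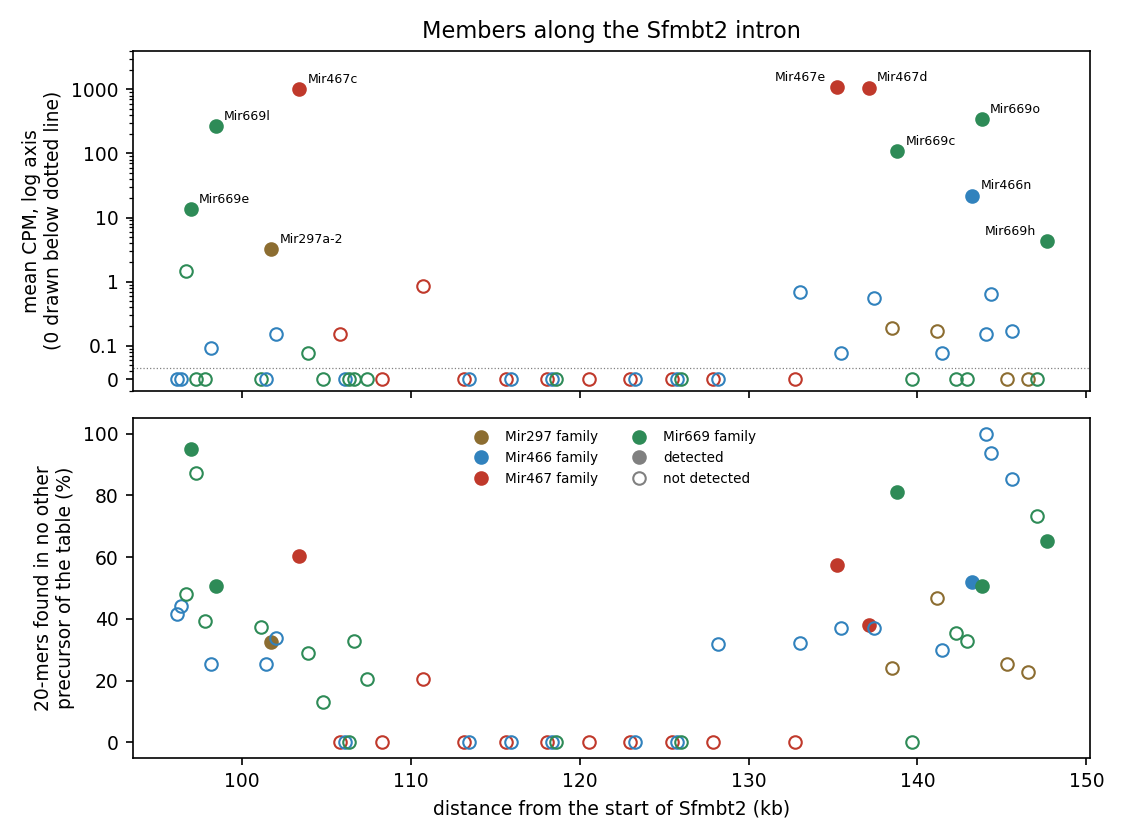
Each point is a member in the Sfmbt2 intron, placed by its distance from the start of Sfmbt2 in kb, with mean CPM on a log axis above and the percent of its 20-nt stretches found in no other precursor below. Filled points are detected members, and the 26 members between Mir467c and Mir467e are all open, with 19 of them at 0% in the lower panel.

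How much of a precursor was its own varied widely among the members. The 10 detected members ranged from 32.4% (Mir297a-2) to 95% (Mir669e) of 20-nt stretches found in no other precursor, with a median of 54.7%. The 49 undetected intron members ranged from 0% to 100%, with a median of 24.1%. None of the 20 members at 0% was detected, beside 1 of 236 other genes. None of the 5 members above 0% and up to 25% was detected either, beside 0 of 129 other genes. Between 25% and 75%, 8 of 33 members were detected, against 2 of 273 other genes in that class. Above 75% but short of 100%, 2 of 9 members were detected beside 28.9% of 218 other genes. Neither of the 2 members at 100%, Mir466g and Mir669n, was detected, beside 29.0% of 969 other genes. Whether reads mapped to several places were left out of the gene counts was not tested, and counts of 0 at the shared precursors were not read as absence.

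**Figure D3:**
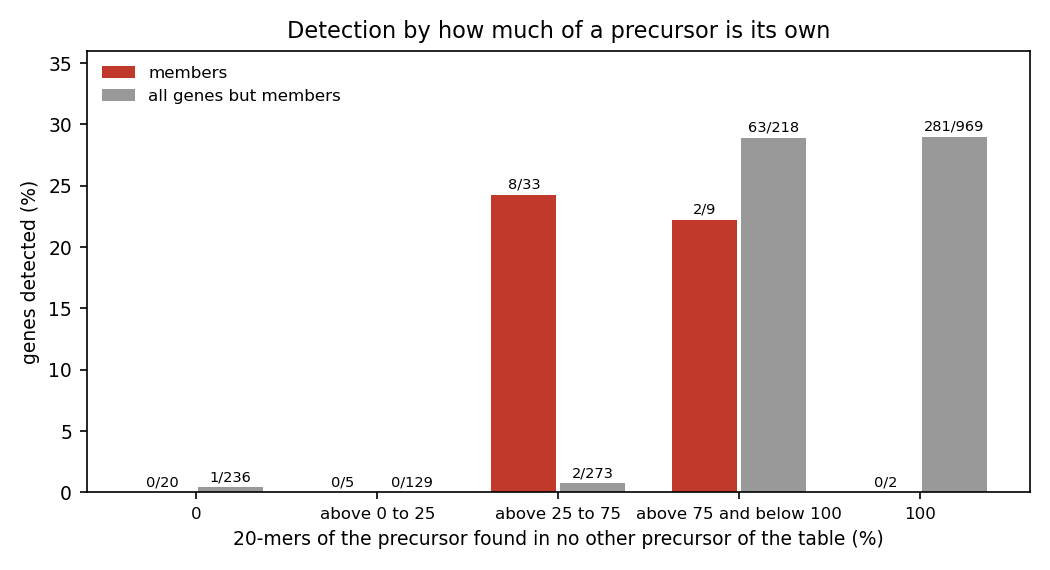
Percent of genes detected in classes of the share of a precursor's 20-nt stretches that occur in no other precursor, for members (red) and all other genes (grey), with numbers detected over numbers in the class. Members were detected in the middle class (8 of 33) and the next (2 of 9), and in none of the others.

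Identical copies were common. A total of 15 members had at least 1 other member with the very same precursor, among them 9 Mir467a genes, 4 Mir466b genes and both Mir669p genes, and the largest group held 6. These 15 had 0 counts in both libraries. The most counted members were not of this kind: Mir467e and Mir467d held stretches of their own, 57.4% and 37.9% of the total. In Mir467d these lay mainly on the 5′ side of the precursor's middle, at 57.6% against 18.2% on the 3′ side. In Mir466n they lay mainly on the 3′ side, at 92.1% against 10.8%, and Mir297a-2 had them there alone, at 63.9% against 0%. For Mir467e the values were 58.8% on the 5′ side and 55.9% on the 3′ side. The deposited counts are per precursor, so the arm they came from is not known.

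Members outside Sfmbt2 gave no counts in either library. They were Mir466f-4, Mir466i, Mir466j, Mir466k, Mir466q, Mir467f, Mir467g, Mir467h, Mir669n and Mir297-1, on chromosomes 3, 5, 7, 9, 10, 11 and 13. Of these, Mir466q alone lay in an intron of a gene on its own strand, Tnik (chr3:28419943-28420018). Mir466i (Cdk13), Mir466k (Gm37240), Mir467f (Fxr2), Mir467g (Grk4) and Mir669n (Slc30a7) lay in introns of genes on the opposite strand, and the remaining 4 lay in no other annotated gene. The mature sequences shown above lie at chr13:17747552-17747573 (miR-466i-3p), chr3:28419988-28420007 (miR-466q), chr10:60960802-60960824 (miR-466j), chr3:85467396-85467418 (miR-466k), chr9:115381898-115381919 (miR-467h) and chr3:115979905-115979924 (miR-669n) on the plus strand, and at chr11:69635419-69635439 (miR-467f) and chr5:34732872-34732892 (miR-467g) on the minus strand of GRCm38. The 59 intron members together had 20639 and 25687 counts, but 34 of them also had 0 counts in both libraries and 3 genes held 80.3% and 80.2% of the sum. The difference between the locations thus lay in the 10 detected genes and does not describe a typical intron member, whose median was 0 CPM. The median over all genes of the table was also 0 CPM, and 1261 of those 1973 genes had 0 counts in both libraries.

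The letters also differed between the locations. The longest run of alternating U and G had a median of 13 nt in the 10 precursors elsewhere, 8 nt in the 59 intron precursors and 4 nt over the 1894 precursors compared. A U and G run of at least 12 nt was present in 6 of the 10 precursors elsewhere, in none of the 59 and in 4.28% of all. Of the 81 precursors with such a run, 75 were outside the 4 families. For alternating C and A the medians of the 2 locations stood the other way round. The longest such run had a median of 4 nt elsewhere, 8 nt in the intron precursors and 3 nt over all. Long C and A runs did not separate the locations, since runs of at least 12 nt occurred at both. Examples were Mir467f and Mir466q elsewhere, at 12 nt, and Mir669c and Mir669h in the intron, at 15 nt. By the 20-nt measure the precursors elsewhere had a median of 70.0% of their own, higher than the 29.9% of the intron members, but that measure saw microRNA precursors only. How often such UG or CA runs recur in the rest of the genome was not analysed here. The median GC content was 37.2% in the intron members, 38.9% in those elsewhere and 51.0% over all precursors.

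The intron holds 48 further tabulated microRNA genes with names of another kind on the same strand, and none of them was detected. Together they had 20 and 16 counts. The highest were Gm22925 with 5 and 9 counts and Gm22072 with 6 and 3. Of their precursors, 47 shared 20 nt with another precursor and 22 had no stretch of their own. For scale, 18.1% of all tabulated genes were detected. With family members left out, the share was 7.71% of the 856 genes whose precursor shares 20 nt with another. It was 1 of the 236 genes with no stretch of their own. Both of these classes include genes of this intron.

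Other microRNA clusters were set beside the 4 families for scale, and 18.1% of all tabulated genes were detected. The rodent-expanded X-linked cluster near Fmr1 had 0 of 20 genes detected and 7 and 8 counts in all. Of its 20 precursors, 15 shared no 20 nt with another. Among the 969 genes outside the 4 families with no shared 20 nt, 29.0% were detected. The highest gene of the X-linked cluster, Mir741, had 4 and 4 counts. The Mir290 cluster of pluripotent cells had 3 of 7 detected, led by Mir293 at 5.23 and 10.5 CPM and Mir294 at 2.43 and 3.70 CPM. The 5 Clcn5 intron genes, all detected, took 0.300% ± 0.00991 of counts (SD, n = 2), led by Mir532 at 1453 and 1423 CPM and Mir188 at 980 and 930 CPM. The 59 Sfmbt2 intron members, at 0.391% ± 0.00734, took a larger share, and the replicates of the 2 sets did not overlap. These are sums over 59 and 5 genes, and 34 of the 59 had 0 counts in both libraries. Of the 59 precursors, 58 shared 20 nt with another, against 0 of the 5 in Clcn5, so the 2 sets may not be counted alike. The imprinted Mir379 to Mir410 block, in which 28 of 33 genes were detected, took 3.96% ± 0.114. Its highest genes were Mir411 at 9267 and 9164 CPM and Mir487b at 6382 and 5886 CPM.

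Between the replicates, the abundant members were close. For the 6 detected members above 50 CPM the log2 ratio of replicate 2 over replicate 1 lay between -0.08 (Mir669l) and 0.08 (Mir669o), with a median absolute value of 0.07 beside 0.10 over the 218 detected genes of that level. Only the interval of Mir467e excluded 0, at 0.07 (95% exact binomial interval 0.02 to 0.13). The 4 members under 50 CPM were all higher in replicate 2, with a median absolute log2 ratio of 0.43 beside 0.28 over 139 detected genes of that level. Mir466n differed by 0.46 (0.09 to 0.83), while the intervals of Mir669e (0.40, -0.07 to 0.88), Mir669h (0.40, -0.45 to 1.28) and Mir297a-2 (0.89, -0.14 to 2.01) included 0. Over all 10 members 9 were higher in replicate 2, with a median log2 ratio of 0.08, and over all 357 detected genes 182 were higher there, with a median of 0.01. Members of 1 intron may share a transcript and are not independent of each other.

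**Figure D4:**
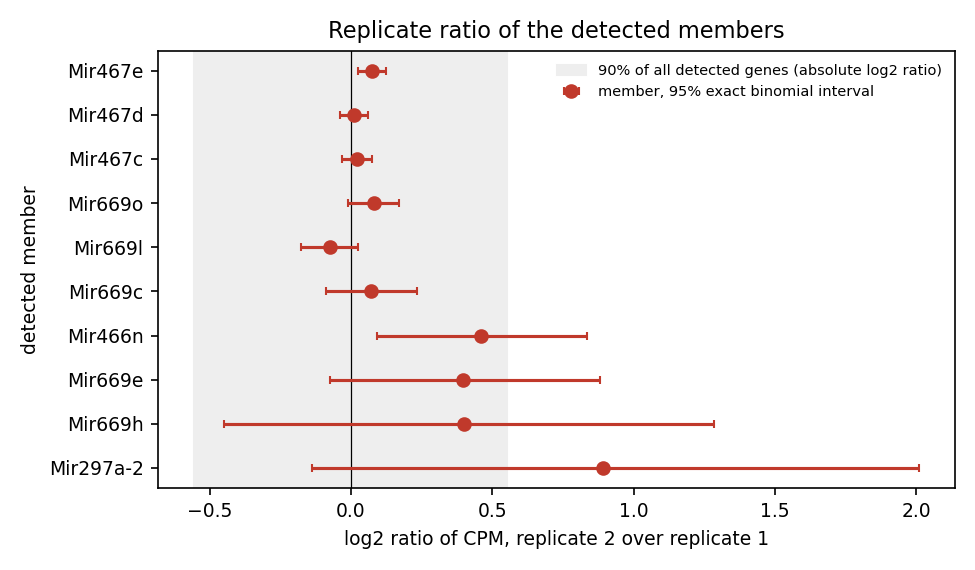
Log2 ratio of CPM in replicate 2 over replicate 1 for the 10 detected members, with 95% exact binomial intervals. The grey band covers the absolute log2 ratio of 90% of all detected genes, 0.55, and only Mir297a-2, with 12 and 27 counts, lies outside it.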

How the data were processed

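MicroRNA-seq of 2 pools of embryonic lung (inserts under 30 nt, per the labels) was analysed. Each deposited table lists raw counts of reads by gene, obtained on mm10 with annotation M4 according to its readme. Sources used here do not name the aligner or counter. A gene is a precursor, so mature arms were not separated. The third column, reads on the annotated strand as judged from the totals, was used, and library sizes leave out the 4 summary lines. CPM is counts per 1000000 gene counts. GENCODE M21 (GRCm38) gave symbols and positions. Of 1973 identifiers 1894 matched, and all 69 members matched with the same version.

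The members and lists were chosen with earlier results of these data known. Named genes were all detected members (10 counts in both libraries), the 2 highest undetected members of each family, the member with most opposite-strand reads, other microRNA genes in the intron and the 2 highest genes of each comparison list. Other members named to describe position, copies or location were chosen after their values were seen. A gene's own stretches are its 20-nt windows absent from every other tabulated precursor on both strands (GENCODE transcripts); identity came from global alignment (match 1, mismatch -1, gap opening -2, extension -0.5). Ratios carry 95% exact binomial intervals. Counts of 1973 genes were simulated with counting noise only, and 199 genes changed by a log2 ratio of 1 in either direction were estimated. Taken along the simulated direction, replicate 2 over 1 gave a median of 1.00, and 95.5% of intervals covered the simulated ratio. Spread between pools beyond counting error was not simulated. Alternatives were strand-blind counts, each replicate alone, no Mir143 in the total, minimums of 1 or 100 counts, members sharing no 20 nt, either strand of Sfmbt2, TMM from edgeR 4.0.16 and size factors from DESeq2 1.42.0. Stretches of 18 or 24 nt and all annotated precursors were added after seeing the data. Python 3.11.15 (numpy 2.4.6, pandas 2.3.3, scipy 1.17.1, biopython 1.88, matplotlib 3.10.9) and R 4.3.3 were used.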

Additional observations from a re-analysis of the deposited data

How the results depend on the processing

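Depth limits members at 0 counts to the value of 3 counts, and for precursors with copies that limit does not hold if reads mapped to several places, 31.4% and 30.6% of the libraries, were left out of the gene counts, which was not tested. The 10 detected members became 17 with a minimum of 1 count and 6 with 100 counts, against 29.9% and 12.9% of all genes. Restricted to the 2 members sharing no 20 nt, 0 were detected, and the share was 1.54e-05% for all members, for the intron and for Mir466, and 0 for Mir669; Mir297 and Mir467 had no such member, and the ratio of intron over elsewhere was not computed. Leaving Mir143 out of the total, which makes it smaller, gave 0.424% for all members and for the intron, 0.341% for Mir467 and 0.0805% for Mir669. Strand-blind counts, with a larger total, gave 0.379%, 0.379%, 0.305% and 0.0720%. Each replicate alone gave 10 detected members. It gave 0.385% to 0.396% for all members and for the intron, 0.310% to 0.318% for Mir467, 0.0733% to 0.0749% for Mir669, 0.00209% to 0.00282% for Mir466 and 0.000280% to 0.000431% for Mir297. The log2 ratio of the summed counts of the 59 intron members over a floor of 3 counts for the 10 elsewhere was 12.75 to 13.06, a ratio of sums over sets of unequal size and not a fold per gene. The median log2 ratio of the replicates was 0.10 with TMM and 0.09 with DESeq2. Stretches of 24 nt left 19 members with none of their own and 18 nt left 20, and none of them was detected. No paired analysis was possible because the labels give a single group.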
